A study of Mus musculus with 6 samples.

Results

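The genes of the major histocompatibility complex (MHC) and of antigen processing were followed in mouse embryonic fibroblasts (MEFs) with and without Anp32e, the gene of a histone chaperone known to remove the variant H2A.Z from chromatin. The set held every gene whose symbol starts with H2-, the mouse name for MHC genes, together with 15 named genes of peptide supply, loading and MHC regulation, which were B2m, Tap1, Tap2, Tapbp, Psmb8, Psmb9, Psmb10, Psme1, Psme2, Erap1, Calr, Pdia3, Nlrc5, Ciita and Cd74. A gene was represented by its RefSeq transcript with the highest mean. This gave 56 of the 25043 genes of the table, 41 of them H2- genes. The annotation lists 9 further H2- genes that had no transcript in the table and were not analysed here. Membership rests on names and no measured value, while the transcript of each gene was chosen by its mean. The rule was written with earlier results of these data known.

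RNA was sequenced from 3 WT and 3 Anp32e-/- libraries of primary MEFs. No other treatment or allele is named in the labels, and the mouse strain is not given in the sources used here. The table gives a mean over the 6 libraries and a log2 fold change of Anp32e-/- over WT (log2FC) with its standard error (SE). It also gives a p-value adjusted over transcripts, which some transcripts with reads lack. The study's methods speak of biological replicates for its cell culture work, and nothing in the sources used here says whether libraries of a group came from separate embryos, so the p-values measure the spread between these libraries. Sequencing depth appears only in relative form, as size factors between 0.9089 and 1.1308.

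MHC class I molecules are carried by nearly all nucleated cells and hold short peptides cut from proteins inside the cell. A class I molecule is a heavy chain bound to beta-2-microglobulin, and its peptides are cut by the proteasome, pumped into the endoplasmic reticulum by the TAP transporter, trimmed there by Erap1 and loaded with the help of tapasin, calreticulin and Pdia3. MHC class II molecules present peptides of endocytosed proteins and belong mainly to dendritic cells, macrophages and B cells. Interferons raise many genes of both pathways, and resting fibroblasts are known for class I without much class II.

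Promoters of 4 genes of the class I pathway are shown to set genes of both directions side by side: H2-K1 and H2-D1, the classical heavy chains, and Tap1, all lower in Anp32e-/- MEFs, and Tapbp, which was higher. Each run is the 250 bases before a RefSeq transcription start on GRCm38.p6, written 5′ to 3′ on the gene's own strand. Capitals mark matches, on either strand, to 5 motifs: GGGGATTCC (kappaB), TGACG (the core of the X2 box), CCAAT (the Y box, read as ATTGG on the other strand), GGGCGG (the GC box, read as CCGCCC) and GAAANNGAA (paired interferon response elements).
H2-K1, chr17:34000348-34000597, minus strand: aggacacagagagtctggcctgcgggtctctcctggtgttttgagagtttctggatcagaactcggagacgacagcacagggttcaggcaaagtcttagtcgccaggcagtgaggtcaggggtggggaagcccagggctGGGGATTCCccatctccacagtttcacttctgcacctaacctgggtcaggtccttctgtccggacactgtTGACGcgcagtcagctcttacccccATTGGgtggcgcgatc
H2-D1, chr17:35262844-35263093, plus strand: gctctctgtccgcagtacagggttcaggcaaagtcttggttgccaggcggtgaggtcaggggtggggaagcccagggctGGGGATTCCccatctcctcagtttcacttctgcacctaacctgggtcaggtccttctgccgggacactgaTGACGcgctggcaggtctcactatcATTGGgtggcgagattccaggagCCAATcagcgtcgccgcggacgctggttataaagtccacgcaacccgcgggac
Tap1, chr17:34187306-34187555, plus strand: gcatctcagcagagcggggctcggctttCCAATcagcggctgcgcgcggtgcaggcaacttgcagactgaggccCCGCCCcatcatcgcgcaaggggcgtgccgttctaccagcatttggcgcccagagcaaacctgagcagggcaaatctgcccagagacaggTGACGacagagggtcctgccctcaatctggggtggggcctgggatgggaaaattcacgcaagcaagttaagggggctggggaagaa
Tapbp, chr17:33919228-33919477, plus strand: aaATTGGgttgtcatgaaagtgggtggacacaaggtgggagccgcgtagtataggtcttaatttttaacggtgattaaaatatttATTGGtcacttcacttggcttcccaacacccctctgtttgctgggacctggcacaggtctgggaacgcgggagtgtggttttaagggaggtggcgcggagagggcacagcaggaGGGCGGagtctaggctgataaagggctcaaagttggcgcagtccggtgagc
H2-K1 and H2-D1 held a kappaB match, TGACG and an inverted CCAAT in the same order, and H2-D1 had a second CCAAT 53 bases before its start. In H2-D1 these lay 171, 101 and 76 bases before the start, and in H2-K1 111, 41 and 16 bases before the upstream one of the 2 starts that the RefSeq promoter table lists. The span RefSeq gives the H2-K1 gene extends beyond that start, so its window lies inside the gene span. Tap1 had CCAAT, an inverted GC box and TGACG. Tapbp had a GC box and inverted CCAAT matches but no TGACG. In their own windows the decreased Psme1, H2-DMb1 and H2-Eb1 had no TGACG either. Among genes not called, B2m and Pdia3 had TGACG and Calr did not. GAAANNGAA was in none of the 4 printed windows, and matches to different motifs did not overlap in them. The window of B2m held GAAANNGAA 139 bases before its start. Of the 56 genes, 43 had a promoter in the RefSeq table. CCAAT was in 34 of them (79.1%) against 34.5% of all 27025 promoters, TGACG in 17 (39.5% against 17.8%), GGGGATTCC in 4 (9.3% against 0.218%), GAAANNGAA in 4 (9.3% against 7.16%) and GGGCGG in 8 (18.6% against 32.9%). GAAANNGAA was the only form of interferon response element searched. The H2-K1 and H2-D1 runs hold tttcacttc after the kappaB match, which that pattern does not match on either strand. Many of these genes are close paralogs with related promoters, and a match is a description of letters, not of factor binding.

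Of the 56 genes, 42 had reads and 39 had an adjusted p. A gene was called when its absolute log2FC was over 0.5 and its adjusted p under 0.05 in the deposited Wald test. Called genes numbered 7 decreased and 2 increased. The decreased genes were H2-D1, H2-K1, Tap1, Tap2, Psme1, H2-DMb1 and H2-Eb1, and the increased ones Tapbp and H2-T24. Among all 16697 autosomal genes tested, 8.2% were decreased and 8.63% increased. A mean normalized count of 10 or more was reached by 24 genes, 19 with a negative and 5 with a positive log2FC, and their median log2FC was -0.17. The median over all 13768 autosomal genes at that mean was -0.002.

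Normalized counts per library, the reads divided by the size factor of the library, could be worked out for 21 of the 24. In 9 of the 21 all Anp32e-/- libraries lay below all WT libraries, and in 2 all lay above. The background over 10290 autosomal genes was 25.3% lower and 23.8% higher without overlap. The 9 were H2-D1, H2-K1, H2-T22, Tap1, Tap2, Psme1, Erap1, Psmb8 and H2-DMb1.

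**Figure D1:**
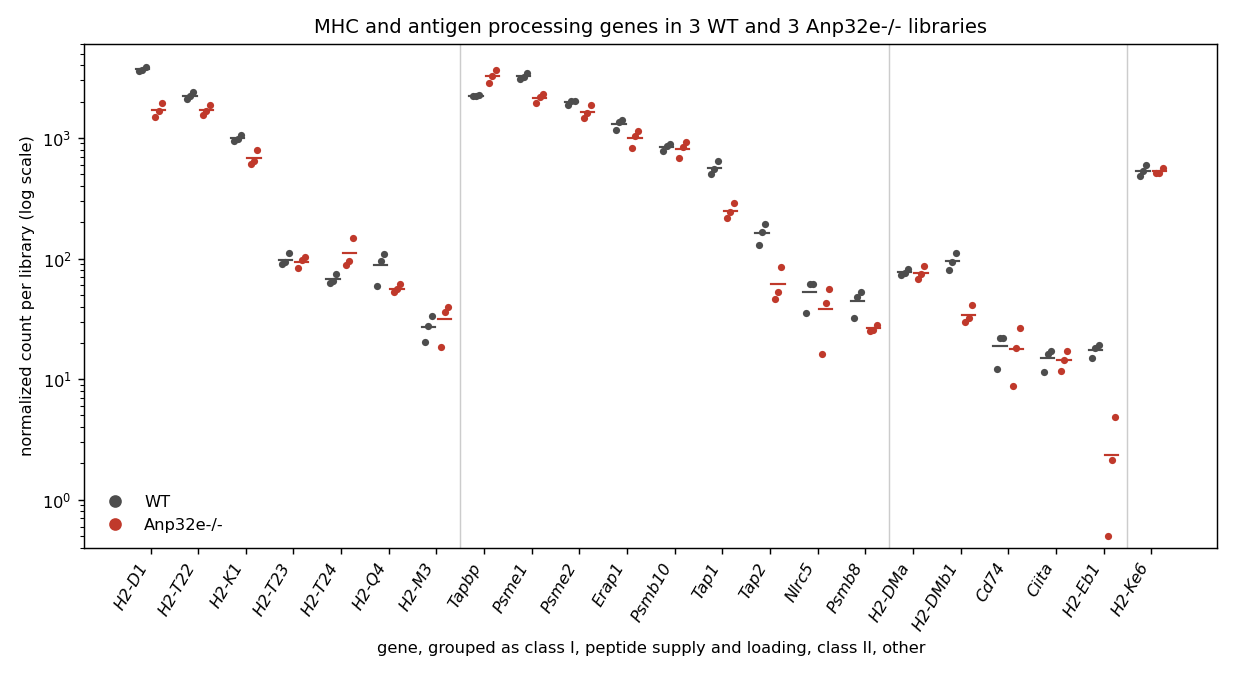
Normalized count of each gene in every library on a log axis, with WT in grey, Anp32e-/- in red and a line at each group mean; genes with a mean of at least 10 and reads per library are shown, plus H2-Eb1, whose library with 0 reads is drawn at 0.5. H2-D1, Tap1, Tap2 and H2-DMb1 separate by genotype, while H2-T23, H2-DMa, Cd74 and Ciita overlap.

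The most abundant classical heavy chain fell most among the well-counted class I genes. H2-D1 (chr17:35263094-35267497, RefSeq positions) had 3609, 3683 and 3846 normalized counts in the WT libraries and 1484, 1661 and 1959 in the Anp32e-/- libraries. The groups did not overlap, and the lowest WT library was far above the highest Anp32e-/- one. The means were 3713 ± 121 and 1701 ± 241 (SD, n = 3 each), a log2FC of -1.13 ± 0.11 (SE; DESeq2 adjusted p = 5.02e-21), or 2.18-fold lower.

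H2-K1, the other classical heavy chain (chr17:33996012-34000619), had 949.8, 979.7 and 1059 in the WT libraries and 601.6, 638.1 and 797.6 in the Anp32e-/- libraries (normalized counts). Again the groups did not overlap, but the decrease was smaller, with a log2FC of -0.55 ± 0.13 (SE, adjusted p = 0.000221). It lay close to the threshold of 0.5. In a limma fit without the Anp32e-/- library of size factor 1.0273 the log2FC was -0.48, which is no longer a call.

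Among the nonclassical heavy chains, which present restricted peptides or act as ligands of natural killer and other innate-like lymphocytes, H2-T24 was the one call. H2-T22 (chr17:36037128-36042742), a ligand of gamma-delta T cell receptors, ranged from 2080 to 2416 in WT and from 1542 to 1879 in Anp32e-/- libraries without overlap. Its log2FC of -0.40 ± 0.11 (SE, adjusted p = 0.0016) was under the threshold of 0.5. H2-T24 (chr17:36003471-36020800) had 62.8, 65.4 and 74.0 in WT against 88.0, 95.1 and 149 in Anp32e-/- libraries, an increase of 0.72 ± 0.28 on the log2 scale (SE, adjusted p = 0.0344). The highest Anp32e-/- library stood well above the other two, and leaving out each of 5 of the 6 libraries in turn, the limma fit did not call the gene, with log2FC from 0.44 to 0.76. H2-T23, the mouse Qa-1 gene and a ligand of inhibitory receptors on natural killer cells, lay between 90.4 and 110.4 in WT and between 83.4 and 102.3 in Anp32e-/- libraries, a log2FC of -0.05 ± 0.23.

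H2-Q4 had 59.0, 94.6 and 109 normalized counts in WT and 52.8, 55.5 and 60.9 in Anp32e-/- libraries. The lowest WT library fell inside the Anp32e-/- range, and the log2FC of -0.64 ± 0.31 was not called (adjusted p = 0.0992). H2-M3, which presents N-formylated peptides, overlapped between groups, from 20.3 to 33.3 in WT and from 18.5 to 39.6 in Anp32e-/- libraries.

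Summed over the 19 heavy chain genes with reads, class I normalized counts were 7061, 7195 and 7624 in WT and 3996, 4292 and 4973 in Anp32e-/- libraries, without overlap. H2-D1 and H2-T22 made up most of that sum. The other 12 heavy chain genes with reads had means under 10, and 11 of the 30 were at 0 in all libraries, namely H2-Bl, H2-M1, H2-M2, H2-M10.1, H2-M10.3, H2-M10.4, H2-M10.5, H2-M10.6, H2-M11, H2-Q1 and H2-T3. Among the low ones, H2-T-ps had 10, 19 and 20 reads in WT and 0, 0 and 8 in Anp32e-/- libraries, and H2-Q10 had 4, 7 and 8 against 0, 0 and 2. Neither was called (adjusted p = 0.0721 and 0.101). Reads of H2-M5 (5, 7 and 14 in WT; 4, 8 and 19 in Anp32e-/-) and H2-M10.2 (8, 10 and 13; 5, 6 and 9) overlapped between groups. Heavy chain genes share long stretches of sequence and differ between mouse strains. H2-Q7 and H2-Q9 carried the same values, from 3 to 11 reads a library, so their reads cannot be told apart, and how reads of paralogs or of another haplotype were assigned was not tested.

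The TAP transporter fell in both of its subunits. Tap1 (chr17:34187556-34197225) had 497.9, 557.2 and 641 normalized counts in WT and 217, 243 and 288 in Anp32e-/- libraries. The log2FC was -1.18 ± 0.16 (SE, adjusted p = 7.03e-12), or 2.27-fold lower. Tap2 (chr17:34204479-34216321) had 129, 165 and 194 in WT and 46.0, 52.6 and 85.8 in Anp32e-/- libraries, with a log2FC of -1.41 ± 0.29 (SE, adjusted p = 8.63e-06). Neither subunit overlapped between genotypes.

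Tapasin (Tapbp, chr17:33919478-33929290), which holds class I molecules to the transporter, differed in the other direction. It had 2213, 2216 and 2282 normalized counts in WT and 2828, 3273 and 3617 in Anp32e-/- libraries, a log2FC of 0.53 ± 0.11 (SE, adjusted p = 7.82e-06). The groups did not overlap. The increase was near the threshold, and chromosome 17 as a whole was shifted upward: the median log2FC of its other genes was 0.33. With that median taken out, Tapbp had a log2FC of 0.20 and an adjusted p of 0.177, and without the Anp32e-/- library of size factor 0.9089 limma gave 0.44.

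Of the genes of peptide cutting, Psme1 alone was called. Psme1 (PA28 alpha, chr14:55578494-55581527), a subunit of the interferon-inducible proteasome activator, had 3095, 3197 and 3476 normalized counts in WT and 1951, 2162 and 2310.4 in Anp32e-/- libraries. This decrease of 0.60 on the log2 scale (log2FC -0.60 ± 0.10 SE, adjusted p = 2.66e-08) showed no overlap. Its partner Psme2 (PA28 beta) had 1865, 2030.4 and 2031 in WT and 1467, 1599 and 1889 in Anp32e-/- libraries, which overlap, with a log2FC of -0.26 ± 0.12 (adjusted p = 0.0727). Both lie on chromosome 14, where the median log2FC of the other genes was -0.35. With that median taken out, Psme1 had a log2FC of -0.25 (adjusted p = 0.0497) and was not called.

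The 3 immunoproteasome subunits, which replace constitutive catalytic subunits after interferon, were not called. Psmb8 had 32.4, 47.8 and 52.3 normalized counts in WT and 25.3, 25.7 and 28.2 in Anp32e-/- libraries, without overlap (log2FC -0.74 ± 0.38, adjusted p = 0.126). Psmb9 was near the lower limit, at 9, 10 and 12 reads against 2, 4 and 5 (log2FC -1.33 ± 0.84, adjusted p = 0.232). Psmb10 was the best counted of them, between 772 and 896.8 in WT and between 675.6 and 916.5 in Anp32e-/- libraries, a log2FC of -0.05 ± 0.14.

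Erap1, the trimming peptidase, ranged from 1168 to 1405 in WT and from 825 to 1149.6 in Anp32e-/- libraries without overlap, and its log2FC of -0.38 ± 0.14 (adjusted p = 0.0236) was under the threshold. Nlrc5, the transactivator of class I genes, had 37, 61 and 70 reads in WT and 15, 44 and 51 in Anp32e-/- libraries. These overlapped (log2FC -0.47 ± 0.45, adjusted p = 0.472).

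The general partners of class I were not called in either direction. B2m, the light chain, had a log2FC of 0.09 ± 0.09 (adjusted p = 0.472), calreticulin (Calr) 0.12 ± 0.09 (adjusted p = 0.295) and Pdia3 -0.07 ± 0.09 (adjusted p = 0.64). Their means, from 22957 to 64716 normalized counts, were too high for reads per library to be worked out, so only group means from the table are known. Per kilobase of transcript, B2m had a WT level of 25863 normalized counts and an Anp32e-/- level of 27526. On the same scale H2-D1 stood at 1766 and 809, H2-T22 at 1271 and 963, H2-K1 at 634 and 433, Tapbp at 864 and 1251, Tap1 at 192 and 84.4 and Tap2 at 47.2 and 17.9. The light chain thus exceeded each of the heavy chains by this measure in both genotypes.

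**Figure D2:**
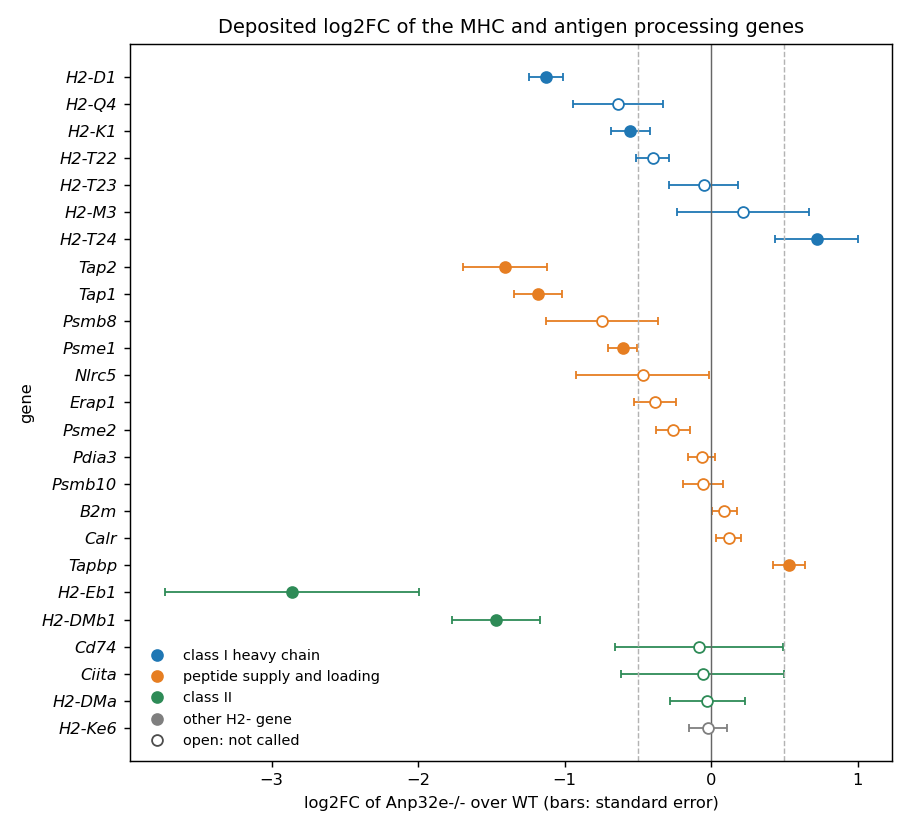
Log2FC of Anp32e-/- over WT from the deposited table (x axis, bars are the standard error) for each gene with a mean of at least 10, plus H2-Eb1, colored by role; filled points were called, open ones were not, and dashed lines mark an absolute log2FC of 0.5. Tap1, Tap2, H2-D1 and H2-DMb1 lie below -1 with short bars, Tapbp and H2-T24 are the filled points above 0.5, and H2-Eb1 has the widest bar.

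Class II genes were near the floor, in both genotypes, apart from the accessory genes H2-DMa and H2-DMb1. H2-DMb1 (chr17:34153191-34160229), the beta chain of the H2-DM complex that exchanges peptides on class II molecules, had 81.1, 92.9 and 111 normalized counts in WT and 29.9, 31.9 and 40.9 in Anp32e-/- libraries. The groups were far apart, with a log2FC of -1.47 ± 0.30 (SE, adjusted p = 9.81e-06), or 2.77-fold lower. H2-DMa, the alpha chain of the same complex, had 73.2, 76.1 and 82.1 against 67.2, 73.7 and 86.6, which overlap (log2FC -0.03 ± 0.25, adjusted p = 0.955).

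H2-Eb1, a classical class II beta chain (chr17:34305867-34316674), had 17, 18 and 20 reads in WT and 0, 2 and 5 in Anp32e-/- libraries. It was called (log2FC -2.86 ± 0.87, adjusted p = 0.00457), although its mean of 9.88 lies just under the minimum of 10 used elsewhere. The classical chains of H2-A were hardly counted: H2-Ab1 had 0, 0 and 4 reads in WT and 0, 5 and 6 in Anp32e-/- libraries, and H2-Aa was at 0 throughout. H2-Eb2 and H2-Ob, the beta chain of the nonclassical H2-O, were at 0 as well. Cd74, the invariant chain, had 12, 23 and 25 reads in WT and 9, 17 and 24 in Anp32e-/- libraries. Ciita, the class II transactivator, had 13, 17 and 17 against 12, 13 and 16. Both overlapped between genotypes, with log2FC of -0.08 ± 0.57 and -0.06 ± 0.56. No class II gene was increased in the deposited DESeq2 test. At an unadjusted p under 0.05 the counts were 0 higher and 2 lower, and limma called 0 increased and 1 decreased of the 4 it could fit. Low counts of class II genes could come from a few cells with much RNA or many cells with little, which bulk samples cannot tell apart.

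Markers of cells that normally carry class II were low as well. Of 17 macrophage, dendritic cell and B cell markers 14 had reads, with C1qb, Cd86 and Ms4a1 at 0, and their summed level was between 589 and 649 in WT and between 429 and 531 in Anp32e-/- libraries. Only Cd68, Cd14 and Csf1r had a mean of at least 10. Of these Cd68 was decreased (log2FC -0.62), Csf1r increased (log2FC 1.06) and Cd14 not called (log2FC -0.44). The part of such cells in the class II values was not tested.

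H2-Ke6, an H2- gene by name that encodes a 17-beta-hydroxysteroid dehydrogenase, was a neighbor with no role in presentation. Its normalized counts were 478 to 593 in WT and 508 to 560 in Anp32e-/- libraries, a log2FC of -0.02 ± 0.13. H2-K2 had 1 to 6 reads a library. The remaining genes with low reads, H2-Q2, H2-Q5, H2-Q6, H2-Q8, H2-T10, H2-DMb2, H2-M9 and H2-Oa, had at most 9 reads in any library and were not called. H2-Q2, H2-M9 and H2-Oa had no adjusted p.

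The decreased H2- and Tap genes stood within a region whose other genes mostly had log2FC above 0. From H2-K2 to H2-M2 (chr17:33974659-37483554, 3.509 Mb) there were 154 further genes. Of the 113 with an adjusted p, 31 were increased and 2 decreased. With a mean of at least 10, 82 had a positive and 4 a negative log2FC, with a median of 0.42. Of the 13 H2-, Tap and Psmb genes of this span at that mean, 11 had a negative log2FC. Among genes at that mean, H2-DMb1, Tap1, Psmb8 and Tap2 were neighbors in this order, with Psmb9, which is under it, before Tap1. The 4 had log2FC of -1.47, -1.18, -0.74 and -1.41. The largest called changes among the neighbors were of genes with few counts. C2, a complement component, had at most 1.77 normalized counts in a WT library and 17.1 to 46.2 in Anp32e-/- libraries. Cyp21a1, the steroid 21-hydroxylase, had 0 in WT and 3.89 to 18.2, and Psors1c2 had at most 1.01 in WT and 0 to 14.3 in Anp32e-/- libraries.

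The shift extended over the chromosome: outside the region, the 599 other genes of chromosome 17 with a mean of at least 10 had a median log2FC of 0.30. With each chromosome's median taken out, H2-D1, H2-K1, Tap1, Tap2, H2-DMb1 and H2-Eb1 remained decreased, and H2-T22 (log2FC -0.73, adjusted p = 9.6e-10), H2-Q4 (-0.96), Psmb8 (-1.07) and H2-T-ps became calls. H2-T24 (0.39), Tapbp and Psme1 were then no longer called, which left 10 decreased and 0 increased. What moves the medians of chromosomes was not tested.

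**Figure D3:**
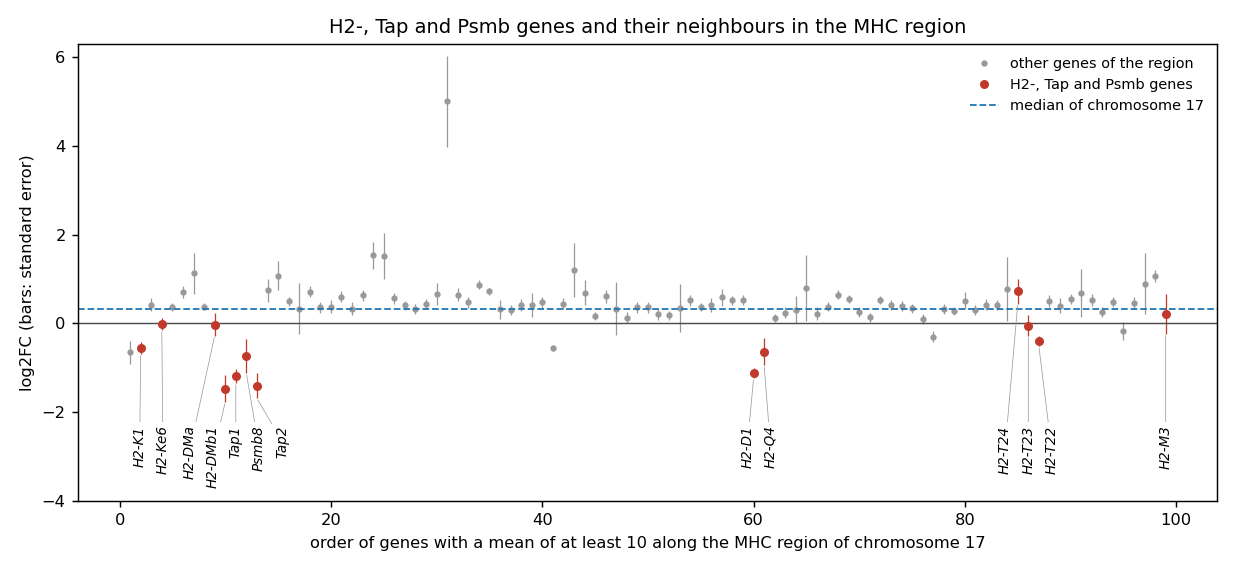
Log2FC (y axis, bars are the standard error) of genes with a mean of at least 10 in their order along the MHC region of chromosome 17 (x axis), with H2-, Tap and Psmb genes in red, other genes in grey and a dashed line at the chromosome median of 0.33. Most grey points lie above 0, and the red points of H2-K1, the H2-DMb1 to Tap2 stretch and H2-D1 lie below it.

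Related gene lists were set beside these genes. The 16 constitutive proteasome and activator subunits, among them the subunits that Psmb8, Psmb9 and Psmb10 replace, had a median log2FC of -0.04 and log2FC between -0.36 and 0.20. None was called in the deposited DESeq2 test, with 2 higher and 2 lower at an unadjusted p under 0.05, and none had reads per library for limma. Among 15 other genes of class I loading and trimming, such as calnexin and Tapbpl, the median was 0.03. There 0 were called by DESeq2 and by limma, which could fit 4 of them, and 2 were higher and 3 lower at an unadjusted p under 0.05.

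The transcription factors and interferon receptors and kinases upstream of these genes were listed with the signalling inhibitor Socs1, and none was called decreased. Of 27 genes, 2 were increased and 0 decreased in the deposited DESeq2 test, with a median of 0.15. At an unadjusted p under 0.05, 11 were higher and 4 lower, and limma called 2 increased and 0 decreased of 18. The increased ones were Socs1, an inhibitor of cytokine signalling, at 151, 180.3 and 185 normalized counts in WT and 250.2, 275 and 287 in Anp32e-/- libraries (log2FC 0.65 ± 0.17, adjusted p = 0.000645), and the kinase Jak2 (log2FC 0.59 ± 0.16, adjusted p = 0.000833). Socs1 lies on chromosome 16 and Jak2 on chromosome 19, whose median log2FC was 0.21 and 0.34. These 2 calls are given without the chromosome median taken out. Rfx5, which binds the X box of MHC promoters, had a log2FC of -0.47 (adjusted p = 0.000266), under the threshold. Of the endosomal class II pathway genes, 8 of the 10 listed were matched, 7 had an adjusted p, and the cathepsin genes Ctsl (log2FC 0.52) and Ctsz (log2FC -0.57) were called in opposite directions.

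The interferon-stimulated genes that were called were all lower in Anp32e-/- MEFs. Of 53 such genes 50 had an adjusted p, and 16 were decreased and 0 increased in the deposited DESeq2 test, against 8.2% and 8.63% of all genes tested. At an unadjusted p under 0.05, 27 were lower and 1 higher, and limma called 18 decreased and 0 increased of 39. The median log2FC was -0.56. Cxcl10, a chemokine, had 162, 206 and 278 normalized counts in WT and 66.3, 71.1 and 83.6 in Anp32e-/- libraries (log2FC -1.55 ± 0.25, adjusted p = 1.24e-08). Oas1a, a sensor enzyme for double-stranded RNA, had 46.6 to 61.9 in WT and 14.96 to 29.7 in Anp32e-/- libraries (log2FC -1.39 ± 0.39, adjusted p = 0.00222). Ifit1, which binds foreign RNA caps, had 135 to 203 in WT and 58.3 to 77.9 in Anp32e-/- libraries (log2FC -1.34 ± 0.25, adjusted p = 1.12e-06). Of 39 with reads per library, 28 were lower without overlap and 1, Bst2, was higher (25.3% and 23.8% of all genes). Interferon levels or signalling were not measured, and a few genes stand in both this list and the list of transcription factors, receptors and kinases.

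**Figure D4:**
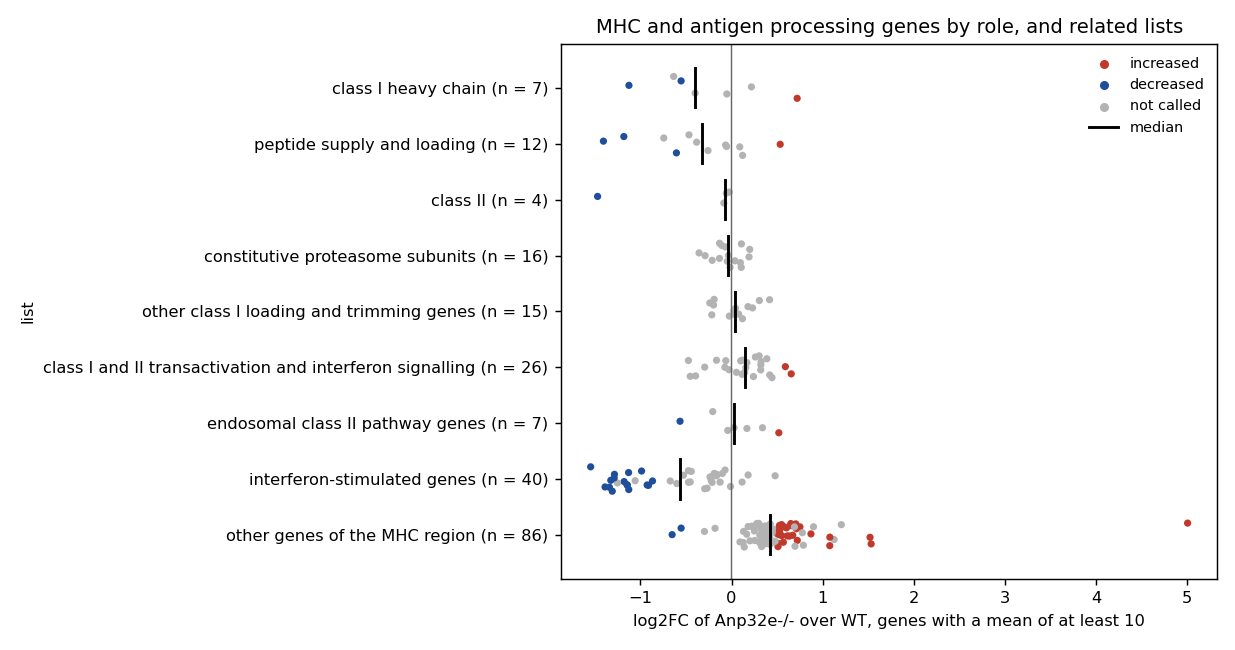
Log2FC of genes with a mean of at least 10 (x axis) by list (y axis, number of genes in parentheses), with increased genes in red, decreased in blue, others in grey and a black bar at each median; the vertical spread within a list is arbitrary. Interferon-stimulated genes have a median of -0.56, class I heavy chains -0.40, and other genes of the MHC region 0.42.

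The groups also differed in ways beyond Anp32e. Anp32e itself, the targeted gene, had 3021 to 3421 normalized counts in WT and 1083 to 1156 in Anp32e-/- libraries, so reads remained on the transcript. Xist ranged from 4647 to 6035 in WT libraries and was at most 1.1 in Anp32e-/- libraries, and the Y-linked Ddx3y, Eif2s3y, Kdm5d and Uty had 0 reads in WT and at least 566.5 normalized counts in each Anp32e-/- library, so embryo sex and genotype cannot be told apart. Of 9 fibroblast markers, 4 were increased: Dcn (log2FC 4.43), Col3a1 (1.65), Col1a2 (1.16) and Pdgfrb (0.92). Vim had a mean of 330695, with a log2FC near 0, Col1a1, Thy1 and Pdgfra were not called, and Lum was hardly counted, at a mean of 1.33. Of 6 mesothelial markers, Msln, Upk3b, Upk1b, Wt1 and Lrrn4 were increased and summed to between 270.5 and 309.5 in WT and between 4190 and 4486 in Anp32e-/- libraries. The remaining one, Krt19, was the most abundant and was decreased (fitted means of 9129 and 5671, log2FC -0.69). Epithelial markers summed to 297 to 320 against 1979 to 2177, and most of this was Krt18 (means of 279.8 and 1931.5). Cdh1 was also increased (log2FC 4.42), while Epcam and Krt8 overlapped between groups and were not called. The part of cell makeup in the values of the MHC genes was not tested. Correlations of log2 values between libraries were 0.977 to 0.988 within and 0.918 to 0.929 between genotypes. Several genes overlap a gene in the annotation (Erap1 with Cast, Pdia3 with Catsper2, B2m with Patl2, Tapbp with Gm19412, Psme1 with Emc9, H2-DMa with Brd2, and H2-T22, H2-T23 and H2-T24 with A930015D03Rik), and whether counting used strand is not given in the sources used here, so reads of such pairs may be shared.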

How the data were processed

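Total RNA of 3 WT and 3 Anp32e-/- MEF samples was sequenced. Per the methods of the study, the authors used STAR for alignment to mm10, featureCounts for reads per RefSeq transcript and DESeq2 at its defaults; the strand setting is not given in the sources used here. The deposited table holds these values for 42361 transcripts: the mean normalized count (a signal), the log2 fold change and its log2 SE, the Wald statistic (a score) and p-values, raw and adjusted by the authors. These comparison columns are the only deposited values and were used as such; 42203 transcripts were matched to RefSeq genes. X- and Y-linked genes were left out of backgrounds.

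Reads per library were worked out by arithmetic: transcripts with 1 read gave the size factors, and for means up to 3000 the whole-number set was accepted that returned the listed mean to 15 digits and the log2FC within 1e-11. This solved 15724 of 15739 transcripts (99.90%). The genotype of a library came from the sign of its 1-read transcripts, and libraries were not matched to replicate numbers. limma 3.58.1 (R 4.3.3) was fitted to log2(normalized count + 0.5) of 10290 genes with eBayes trend and Benjamini-Hochberg adjustment; both steps were tested on simulated data. Python 3.11.15 was used.

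All members with a mean of at least 10 are named, with the class II and regulatory genes under it, and from each other list the 3 called genes with the largest change; Rfx5, the low-count class I genes and others beyond this rule were chosen after their values were seen. The members and lists were chosen with earlier results of these data known. Alternatives concerned thresholds, transcript, filter, adjustment, chromosome median, null hypothesis, tool and each library left out.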

Additional observations from a re-analysis of the deposited data

How the results depend on the processing

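The count of 7 decreased genes was 1 at an absolute log2FC over 1.5 (H2-Eb1) and 4 when the Wald test asked for an absolute log2FC over 0.5 (H2-D1, H2-DMb1, Tap1 and Tap2). It lay between 6 and 10 under the other settings. Leaving out 1 library in limma gave 5 to 7. The count of 2 increased genes was 0 at an absolute log2FC over 1.5, 0 under that Wald test, 0 with the chromosome median taken out, 1 at an adjusted p under 0.01 with no fold threshold, and 1 without any 1 library. The median log2FC of -0.17 was -0.35 with chromosome medians taken out, -0.26 at a mean of at least 50 and -0.07 without class I genes of the H2-D, H2-K, H2-Q and H2-T regions. H2-Eb1 was lost with a mean of at least 10 and was not in the limma fit, which by construction tests fewer genes; H2-Q4 became a call (log2FC -0.85) without the WT library of size factor 1.0515. Over single genes and settings, 0 called values changed sign and 17 uncalled ones did. The cause of the other differences was not tested. No paired analysis was possible because the libraries are known by genotype and not by replicate number. Precision is limited by 3 libraries a group and, for genes under 10 normalized counts, by depth.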
